A study of Homo sapiens with 6 samples.

Results

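The genes of leptin receptor and gp130 JAK-STAT3 signalling described here are 10 rows, found by gene symbol, of a table of 58735 genes: LEPR, LEPROT, IL6ST, LIFR, OSMR, IL6R, JAK1, JAK2, STAT3 and SOCS3. The set was put together with measured values of the same contrast in view. It was therefore chosen by the counts described here, and the values of the 10 genes are given as a description. Where a threshold is counted over them, nothing is read from it. The cells were labelled as MG63, an established human osteosarcoma line. They were transfected with siRNA against FUBP1 (siFUBP1, 3 samples) or with a negative control siRNA (siMock, 3 samples), and RNA was taken 48 h later. Such small duplexes lead the cell's silencing complex to an mRNA of matching sequence, which is then cut. FUBP1 is a DNA- and RNA-binding protein that acts on transcription and splicing. All 6 samples are labelled as this single line. The study's methods say in general that experiments were repeated, but no source used here says so of the 3 sequenced samples of a group, so p-values measure only the spread between these samples, which may be technical.

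Leptin, LIF, oncostatin M and interleukin 6 act through related receptors that have no enzyme of their own. The signalling chains of these receptors carry Janus kinases (JAKs) on their tails. LEPR pairs with itself and works mainly with JAK2. LIFR, OSMR and IL6R work together with gp130, the shared signalling subunit encoded by IL6ST, and mainly with JAK1. The activated kinases phosphorylate STAT3, which enters the nucleus and switches on genes that include SOCS3, whose product binds the receptors and kinases and shuts the signal off. In bone, LIF and oncostatin M receptors act in osteoblasts, and LEPR marks stromal cells of the marrow.

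FUBP1 itself had 3872, 4331 and 4282 counts in the siMock samples and 749, 752 and 926 in the siFUBP1 samples, so that 18.4% of its level remained (log2 fold change -2.44 ± 0.09 SE, adjusted p = 1.90e-17 by edgeR's quasi-likelihood test). Total counts lay between 16309900 and 17484313 per sample. The defining markers of the osteoblast lineage were mostly absent. Only 1 of 9 (COL1A1) had at least 10 counts in every sample, and COL1A2 and IBSP had none. The 4 epithelial markers (EPCAM, KRT8, KRT18, CDH1) summed to between 475 and 541 FPKM in siMock and between 271 and 291 FPKM in siFUBP1, nearly all of it KRT8 and KRT18. EPCAM reached at most 1.94 FPKM and CDH1 at most 0.216 FPKM in any sample. FPKM scales the count to the length of the gene and the size of the library. The osteoblast markers summed to 11.1 to 12.2 FPKM in siMock and 5.97 to 6.22 FPKM in siFUBP1, most of which was COL1A1 (10.9 to 11.9 and 4.58 to 4.64 FPKM). The regulator RUNX2 went the other way, at 6 to 8 counts in siMock but 39 to 97 in siFUBP1, as did BGLAP (2 to 4 and 8 to 13) and SPP1 (1 to 2 and 7 to 22). Adipocyte, immune and endothelial markers summed to at most 1.37 FPKM in any sample. All of these sums except the adipocyte one, whose ranges overlapped, were lower in siFUBP1, and their part in the results was not tested. The osteoblast markers do not match the labelled cell type, so the identity of the line is in doubt for every value given here. No reference profile of the line was compared.

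LEPR (ENSG00000116678, GRCh38 chr1:65420652-65641559, plus strand) and LEPROT (ENSG00000213625, chr1:65420587-65436007, plus strand) begin at the same place. LEPROT encodes a small membrane protein that lowers the amount of leptin receptor on the cell surface. The annotation (GENCODE 29) gives LEPR 8 transcripts from 4 first positions, at 0.065, 105.102, 144.959 and 199.353 kb from the first base of LEPROT. The exons of both genes share 165 bases, which are 1.45% of the exonic bases of LEPR and 3.15% of those of LEPROT. The rest of their exons do not overlap, so that most of their bases belong to a single gene, but a count per gene does not say from which first position a LEPR transcript came. Of the RefSeq promoter windows (250 bases before to 50 after a start, GRCh38.p14), 1 is the same for LEPR and LEPROT, and it is shown because the values of these neighbours are set side by side in the next paragraphs. Capitals mark the GC box, GGGCGG, the sequence bound by SP1.

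LEPR and LEPROT, chr1:65420418-65420717, plus strand: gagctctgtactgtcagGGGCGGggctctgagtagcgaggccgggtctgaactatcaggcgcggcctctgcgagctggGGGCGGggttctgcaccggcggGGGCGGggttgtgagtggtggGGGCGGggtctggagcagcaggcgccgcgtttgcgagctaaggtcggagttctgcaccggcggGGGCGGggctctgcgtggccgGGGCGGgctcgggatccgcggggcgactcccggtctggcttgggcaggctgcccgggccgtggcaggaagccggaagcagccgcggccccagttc

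The window was 74% G or C and held 6 GC boxes, all on the printed strand. A GC box on either strand was found in 45% of all 35116 windows and in 9 of the 19 windows of the 10 genes, which belong to 8 genes (all but IL6R and SOCS3). Among these windows the printed one is counted for LEPR and again for LEPROT. A further LEPR window, chr1:65420402-65420701, overlaps it and also held 6 GC boxes, so these windows are not separate stretches of DNA.

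**Figure D1:**
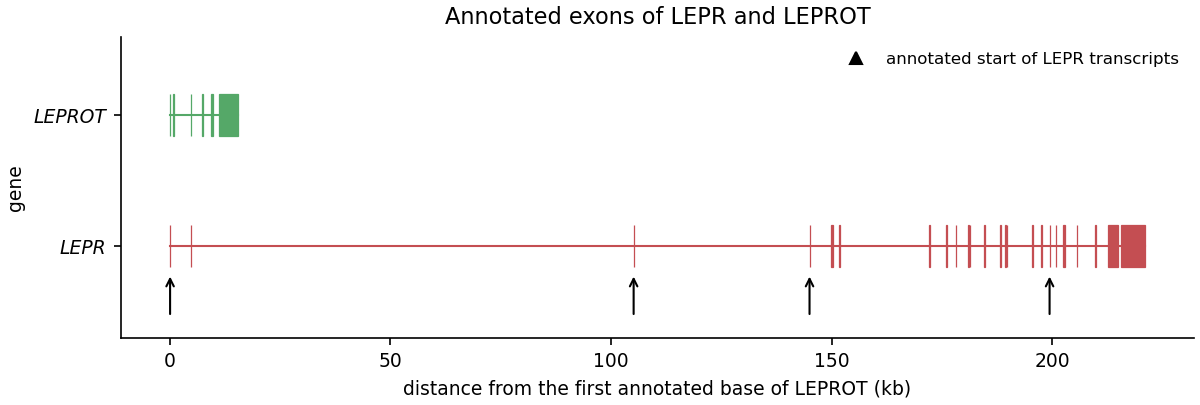
Annotated exons of LEPROT and LEPR (boxes), with the distance from the first base of LEPROT in kb on the x axis and the gene on the y axis. The arrows mark the 4 annotated first positions of LEPR transcripts, of which the one at 0.065 kb lies in the shared start of both genes.

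LEPR, the leptin receptor, was the gene of the set with the greatest difference. It had 47, 49 and 53 counts in the siMock samples and 703, 676 and 724 in the siFUBP1 samples. The groups lay far apart, and the 3 values within each were close. In CPM, the counts scaled to the size of the library, the level was 3.05 ± 0.30 in siMock and 40.7 ± 1.5 in siFUBP1 (SD, n = 3), which is 13.3-fold, or a log2 fold change of 3.74 ± 0.13 (SE). By this log2 fold change LEPR stood at place 18 from the top among the 16116 genes tested, and at place 3 among the 11115 of these that averaged 100 counts or more. In RNA from whole cultures, a change in the number of cells of a kind and a change in RNA per cell cannot be told apart.

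LEPROT had 1139, 1202 and 1270 counts in siMock and 1876, 1719 and 1835 in siFUBP1. It was also higher in every siFUBP1 sample than in any siMock sample, but by far less, at 74.0 ± 6.4 against 105 ± 6 CPM (SD, n = 3) and a log2 fold change of 0.51 ± 0.08 (SE). LEPR therefore took 3.96 ± 0.04% of the summed counts of both genes in siMock and 27.9 ± 0.6% in siFUBP1 (SD, n = 3). Per length, LEPR was at 0.019 times the FPKM of LEPROT in siMock and at 0.178 times in siFUBP1. The difference at LEPR was thus of another size than that at its neighbour, with which it shares a promoter window.

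LIFR (ENSG00000113594, chr5:38474963-38608354, minus strand), which binds LIF and, with gp130, several of its relatives, had 13415, 15008 and 15192 counts in siMock and 18201, 20003 and 22092 in siFUBP1. The groups did not overlap, with a log2 fold change of 0.38 ± 0.09 (SE). OSMR (ENSG00000145623, chr5:38845858-38945596, plus strand), the oncostatin M receptor, had 7249, 8039 and 7827 counts in siMock and 11649, 11961 and 12153 in siFUBP1. These groups did not overlap either, and the log2 fold change was 0.55 ± 0.08 (SE). Both genes were thus higher after FUBP1 siRNA, by 1.31-fold for LIFR and 1.46-fold for OSMR. OSMR shares 229 exonic bases (3.19%) with RICTOR and LIFR 629 (5.3%) with LIFR-AS1, each on the opposite strand. The library kit does not mark strand, and how reads over shared bases were assigned is not given in the sources used here.

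Of the 3 LIFR promoter windows, 2 held a STAT element, TTCNNNGAA, which reads the same on both strands and overlaps no GC box. It was found in 7.66% of all windows of this length and in no window of the other 9 genes. The matches are shown with 10 bases on each side, the element in capitals, as they read on the minus strand (GRCh38.p14).

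LIFR, chr5:38595552-38595580: ccattactagTTCCTTGAAccacaatcca
LIFR, chr5:38557631-38557659: gctttggagtTTCATCGAAaggtctttaa

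The elements begin at positions -165 and -182 from the start of their transcripts. A match of letters is not a binding site.

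IL6ST (ENSG00000134352, chr5:55935095-55994993, minus strand), the gene for gp130, had 2611, 3132 and 3091 counts in siMock and 3074, 3151 and 3173 in siFUBP1. The siFUBP1 values lay within the range of the siMock values in CPM, and the log2 fold change was 0.0085 ± 0.081 (SE), and it ran from -0.079 to 0.073 with any single sample left out. IL6ST shares 8.58% of its exonic bases with AC008914.1 on the opposite strand, which had 0 counts in every sample. IL6R (ENSG00000160712, chr1:154405193-154469450, plus strand), the receptor that binds interleukin 6, had 394, 440 and 307 counts in siMock and 332, 384 and 383 in siFUBP1. Its groups overlapped, with the highest and the lowest count both in siMock and a log2 fold change of -0.13 ± 0.11 (SE).

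JAK1 (ENSG00000162434, chr1:64833229-64966504, minus strand), the kinase on gp130, had 4532, 5180 and 4914 counts in siMock and 5160, 5549 and 5466 in siFUBP1. JAK2 (ENSG00000096968, chr9:4984390-5128183, plus strand), the kinase on LEPR, had 138, 162 and 162 counts in siMock and 125, 146 and 174 in siFUBP1. The groups overlapped for both kinases, with log2 fold changes of 0.065 ± 0.077 (SE) for JAK1 and -0.14 ± 0.15 (SE) for JAK2.

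STAT3 (ENSG00000168610, chr17:42313324-42388568, minus strand), the transcription factor that carries the signal to the nucleus, had 2982, 3429 and 3016 counts in siMock and 2589, 2543 and 2655 in siFUBP1. It was the only gene of the set that was lower in every siFUBP1 sample than in any siMock sample, at 0.782-fold, or a log2 fold change of -0.35 ± 0.07 (SE). SOCS3 (ENSG00000184557, chr17:78356778-78360077, minus strand), the feedback inhibitor that STAT3 switches on, had 2076, 2130 and 1819 counts in siMock and 2191, 2527 and 2117 in siFUBP1. Its groups overlapped, with a log2 fold change of 0.10 ± 0.08 (SE), and of 0.28 when the counts were corrected for GC content and length.

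**Figure D2:**
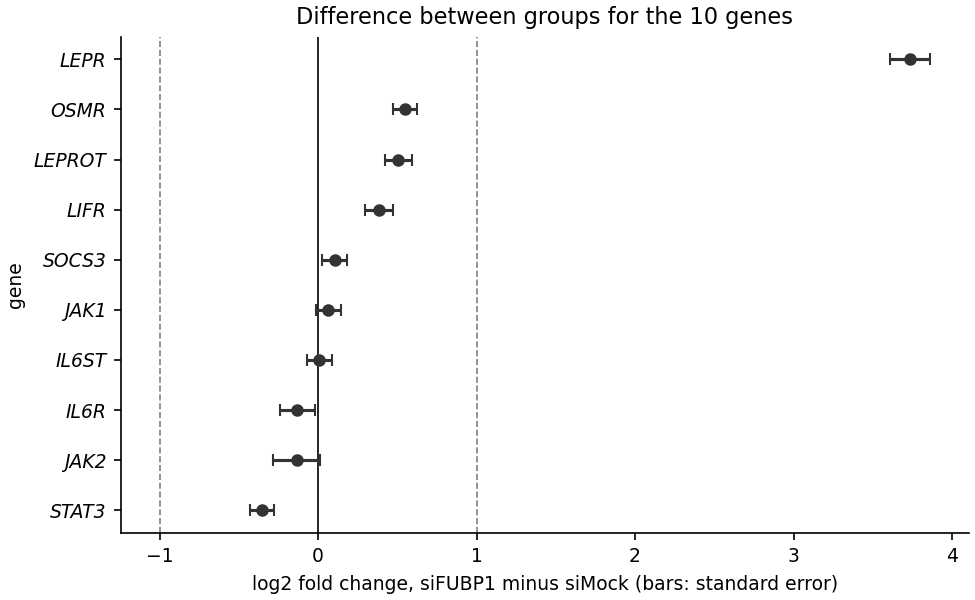
The log2 fold change of siFUBP1 against siMock for the 10 genes (points, with 1 SE as bars) on the x axis, ordered from STAT3 at -0.35 to LEPR at 3.74 on the y axis. The dashed lines mark a log2 fold change of 1 in each direction, which LEPR alone among the 10 passed.

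All 10 genes passed the filter on low counts. The threshold for a call was an adjusted p under 0.05 together with a log2 fold change above 1 in either direction, which held for 17.3% of all 16116 genes tested (8.16% called higher and 9.13% called lower in siFUBP1). Among the 10 genes it held for LEPR only. Without the fold threshold the adjusted p was below 0.05 for 60.2% of all genes tested. The groups did not overlap in CPM for 63.9% of all genes tested and for 5 of the 10: LEPR, LEPROT, LIFR, OSMR and STAT3. The set was chosen by this contrast, so nothing is read from its counts beside these shares. The median log2 fold change was 0.084 over the 10 genes and 0.0020 over all genes tested.

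**Figure D3:**
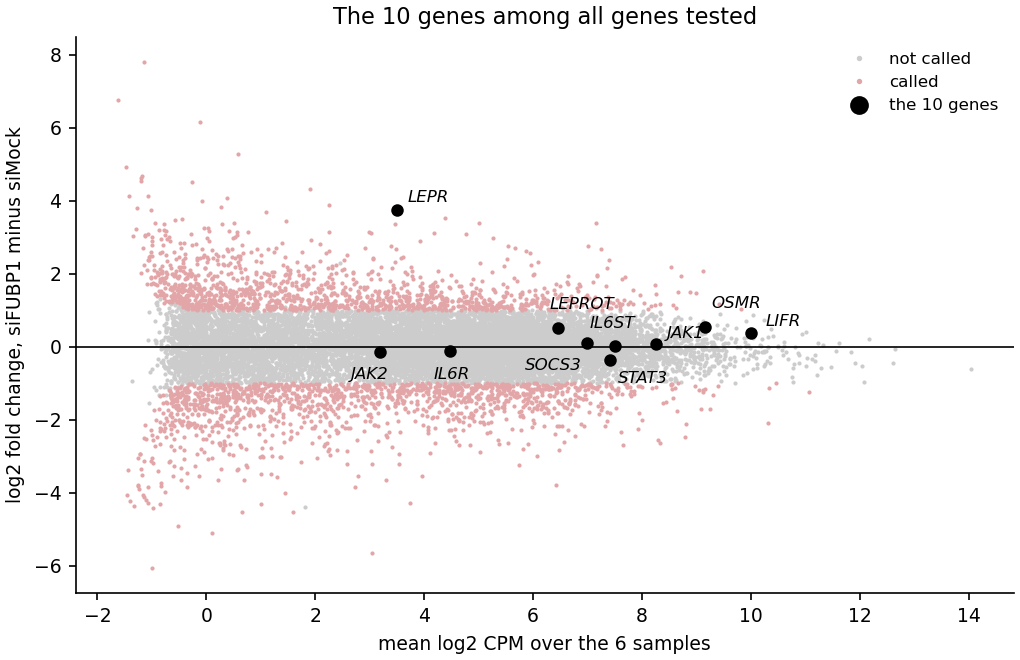
The log2 fold change of siFUBP1 against siMock (y axis) against the mean log2 CPM over the 6 samples (x axis) for all 16116 genes tested, with the 10 genes in black. LEPR lies near the upper edge of the cloud at its level, while the other 9 lie between -0.35 and 0.55.

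The levels of different genes were compared per length, in FPKM. In siMock, LIFR (74.4 ± 6.2 FPKM, SD, n = 3) and OSMR (65.1 ± 3.9) stood highest, and their ranges overlapped. JAK1 (46.8 ± 3.0) and SOCS3 (44.5 ± 2.2) came next and overlapped, followed by STAT3 (21.6 ± 1.1) and IL6ST (19.2 ± 2.0), which also overlapped. LEPROT (14.0 ± 1.2), IL6R (3.56 ± 0.50), JAK2 (1.51 ± 0.15) and LEPR (0.265 ± 0.025) were each apart from the gene before them. The ligand-binding chains LIFR and OSMR were thus at 3.88 and 3.40 times the FPKM of IL6ST, their common partner, and IL6R at 0.188 times.

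In siFUBP1 the order changed at LEPR, LEPROT and STAT3. LEPR (3.56 ± 0.12 FPKM) lay above JAK2 (1.38 ± 0.21) and its range touched that of IL6R (3.27 ± 0.22). LEPROT (19.9 ± 1.1) overlapped IL6ST (19.4 ± 0.1), and both lay above STAT3 (17.0 ± 0.3). LIFR (97.6 ± 7.9) and OSMR (95.8 ± 0.4) stayed on top, at 5.02 and 4.93 times the FPKM of IL6ST. JAK1 (49.2 ± 1.3) and SOCS3 (48.1 ± 4.7) overlapped as they did in siMock.

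**Figure D4:**
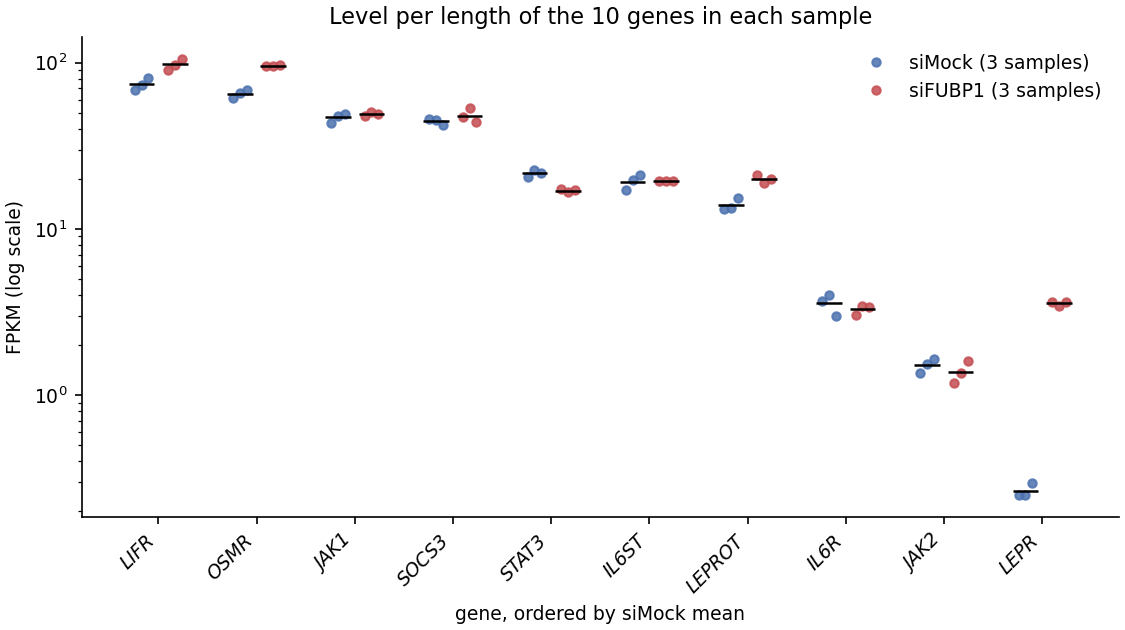
FPKM of the 10 genes on a log y axis, with the genes on the x axis in the order of their siMock means. Points are the 3 samples of each group and lines their means, and LEPR is the gene whose groups lie farthest apart, at 0.265 and 3.56 FPKM.

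The other genes of the pathway were taken from 6 lists with 97 genes in all. Of these, 76 passed the filter on low counts and 7 had no read in any sample, which allows a level of up to 0.192 CPM in the shallowest sample (3 counts, counting error only). Of the 76, 20 were called, 6 higher and 14 lower, which is 26.3% beside 17.3% of all genes tested. The lists, like the 10 genes, were chosen with earlier results of these data known. Their shares, here and in the next paragraphs, are therefore a description, and nothing is read from them beside those of all genes tested. The median log2 fold change of the 76 genes was -0.085. Without siFUBP1 replicate 3, 10 were called higher and 15 lower. The adjusted p-values given for these genes are from edgeR's quasi-likelihood test over all genes tested.

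The ligands of gp130 and of LEPR were partly absent. LEP, the gene for leptin, had no read in any sample, nor had IL27 or IL31, and OSM, the ligand of OSMR, had none in siMock and at most 3 counts per sample in siFUBP1. Of the 12 ligand genes 8 were tested and 4 were called (50%), 2 in each direction, with a median log2 fold change of -0.072. CTF1, the gene for cardiotrophin 1, which signals through LIFR and gp130, had 19, 23 and 12 counts in siMock and 98, 102 and 115 in siFUBP1, and rose by a log2 fold change of 2.46 ± 0.24 (SE, adjusted p = 2.34e-09). IL11, which signals through IL11RA and gp130, had 190, 128 and 126 counts in siMock and 308, 400 and 285 in siFUBP1, and rose by 1.08 ± 0.16 (adjusted p = 3.13e-06). Its fold change dropped just under the threshold, to 0.96, 0.9996 and 0.93, without siMock replicate 2, siMock replicate 3 and siFUBP1 replicate 2.

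EBI3, a chain of interleukin 27, had 535, 498 and 435 counts in siMock and 151, 166 and 200 in siFUBP1, and fell by 1.58 on the log2 scale (SE 0.12, adjusted p = 1.16e-11). IL6 itself passed the test without reaching the fold threshold, with a log2 fold change of 0.90 ± 0.17 (adjusted p = 6.88e-05) and 97 to 156 counts in siMock against 223 to 310 in siFUBP1. LIF, the ligand of LIFR, was at 60.6 ± 3.9 CPM in siMock and 57.9 ± 8.6 CPM in siFUBP1 (SD, n = 3), and its groups overlapped. IL6 shares 20.7% of its exonic bases with genes on the opposite strand.

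Of 27 other receptor chains of JAK-coupled complexes, 17 were tested and 8 were called (47.1%), 2 higher and 6 lower, with a median log2 fold change of -0.35. Not every one of these chains carries a JAK itself. Both chains of the type II interleukin 4 receptor were lower. IL4R had 1042, 1140 and 958 counts in siMock and 289, 347 and 299 in siFUBP1, and fell by 1.83 on the log2 scale (SE 0.10, adjusted p = 1.23e-14). IL13RA1 had 2179, 2518 and 2240 counts in siMock and 696, 722 and 784 in siFUBP1, and fell by 1.73 (SE 0.08, adjusted p = 1.47e-15). IL22RA1, a chain of the interleukin 22 receptor, fell by 1.77 (SE 0.22, adjusted p = 9.63e-08). It had between 86 and 129 counts in siMock and between 29 and 42 in siFUBP1.

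IL11RA, the receptor for the IL11 described above, fell by 1.22 on the log2 scale (SE 0.20, adjusted p = 9.75e-06), from between 87 and 140 counts to between 44 and 63. IL11RA shares 17.7% of its exonic bases with other annotated genes, among them AL162231.3 and GALT on the same strand. The 2 receptors called higher had few reads, as had some of those called lower. IL31RA, the partner of OSMR in the receptor for interleukin 31, had 8, 4 and 4 counts in siMock and 34, 27 and 28 in siFUBP1, with a log2 fold change of 2.37 ± 0.43 (adjusted p = 2.71e-05). CRLF2, the receptor for thymic stromal lymphopoietin, had 27, 29 and 22 counts in siMock and 81, 88 and 97 in siFUBP1, with a log2 fold change of 1.69 ± 0.23 (adjusted p = 4.75e-07). Another 3 receptors with more reads rose by less than the fold threshold: IL20RB, a chain of receptors for interleukin 20 relatives, at 0.92 ± 0.11 (adjusted p = 1.66e-07), CSF2RA, the receptor for GM-CSF, at 0.47 ± 0.09 (adjusted p = 4.58e-05), and IL15RA, the receptor for interleukin 15, at 0.54 ± 0.13 (adjusted p = 0.00064).

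IFNAR2, a chain of the type I interferon receptor, and IL10RB, a chain shared by the receptors of interleukins 10 and 22, were also called lower. IFNAR2 had 75, 68 and 69 counts in siMock and 20, 27 and 33 in siFUBP1. IL10RB had 35, 25 and 30 counts in siMock and 12, 14 and 14 in siFUBP1. The log2 fold change was -1.48 ± 0.25 for IFNAR2 (adjusted p = 9.88e-06), while IL10RB stood at -1.24 ± 0.35 (adjusted p = 0.0030). Both values are uncertain, because IFNAR2 shares 83.2% of its exonic bases with other annotated genes and IL10RB 38.1%, in both cases with AP000295.1 on the same strand and for IFNAR2 also with IL10RB-DT on the opposite strand. IFNGR1 and EPOR, the receptors for interferon gamma and erythropoietin, did not pass the test, with log2 fold changes of 0.051 ± 0.080 and -0.12 ± 0.12.

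All 8 other JAKs and STATs were tested, and 2 were called lower (25%), with a median log2 fold change of -0.54. STAT2, which acts in type I interferon signalling, had 1835, 2172 and 1762 counts in siMock and 878, 943 and 904 in siFUBP1, and fell by 1.16 on the log2 scale (SE 0.08, adjusted p = 3.62e-12). STAT5A, which acts downstream of the prolactin and growth hormone receptors among others, had 3216, 3247 and 2856 counts in siMock and 1521, 1653 and 1574 in siFUBP1, and fell by 1.05 (SE 0.08, adjusted p = 6.03e-12). With the counts corrected for GC content and length the value of STAT5A was -0.84, under the fold threshold. PRLR and GHR, the genes of the prolactin and growth hormone receptors, had no read in any sample. TYK2, a kinase that also binds gp130, passed the test below the fold threshold, with a log2 fold change of -0.86 ± 0.08 (adjusted p = 1.06e-09). By the adjusted p alone, 6 of the 8 were lower and JAK3 was higher, together 87.5% beside 60.2% of all genes tested.

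**Figure D5:**
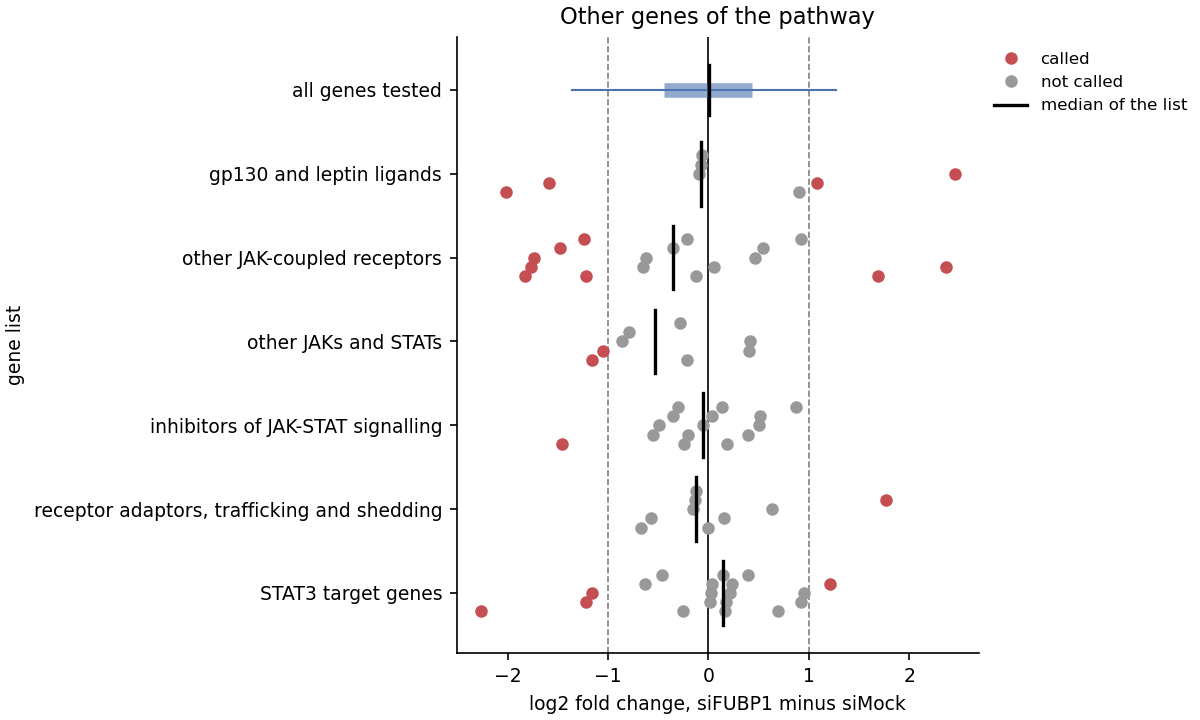
The log2 fold change of siFUBP1 against siMock (x axis) for each tested gene of the 6 pathway lists (y axis), called genes in red, others in grey and the median of each list as a black line. The top row shows all 16116 genes tested, with their middle 50% as the thick bar from -0.45 to 0.44 and the 5% to 95% range as the thin line from -1.36 to 1.27.

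Of 17 inhibitors of the pathway other than SOCS3, 15 were tested and 1 was called (6.67%), with a median log2 fold change of -0.058. CISH, a SOCS family member switched on by STAT5, had 181, 185 and 183 counts in siMock and 71, 65 and 75 in siFUBP1, and fell by 1.46 on the log2 scale (SE 0.16, adjusted p = 9.78e-09). SOCS2 passed the test below the fold threshold in the other direction, with a log2 fold change of 0.87 ± 0.10 (adjusted p = 3.42e-08). PTPN1, the phosphatase that removes phosphate from JAK2, did not pass the test, at 105 ± 3 CPM in siMock and 107 ± 5 CPM in siFUBP1 (SD, n = 3). By the adjusted p alone, 4 of the 15 were higher and 6 were lower, together 66.7% beside 60.2% of all genes tested.

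Of 9 genes for receptor adaptors, trafficking and shedding, all tested, 1 was called (11.1%), with a median log2 fold change of -0.13. IRS1, the insulin receptor substrate that leptin signalling also uses, had 194, 157 and 135 counts in siMock and 591, 624 and 529 in siFUBP1, and rose by 1.76 on the log2 scale (SE 0.12, adjusted p = 2.57e-12). LEPROTL1, the relative of LEPROT, passed the test below the fold threshold at -0.57 ± 0.09 (adjusted p = 2.90e-06), so that its value and that of LEPROT, 0.51, differ in sign. ADAM17, a protease that sheds IL6R, passed it at 0.63 ± 0.09 (adjusted p = 6.94e-07). The adaptors GRB2 and SHC1 did not pass the test, with log2 fold changes of -0.0072 ± 0.076 and -0.14 ± 0.08. ADAM17 shares 13.6% of its exonic bases with genes on the opposite strand. LEPROTL1 (10.6%) and SHC1 (15.2%) share bases with genes on both strands.

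Of 24 genes listed as targets of STAT3, 19 were tested and 4 were called (21.1%), 1 higher and 3 lower, with a median log2 fold change of 0.14. CCND1, the gene for cyclin D1, had 3496, 3966 and 3226 counts in siMock and 783, 765 and 787 in siFUBP1, and fell by 2.27 on the log2 scale (SE 0.08, adjusted p = 1.22e-17). IRF1, an interferon-response transcription factor, fell by 1.22 (SE 0.12, adjusted p = 1.75e-09). JUNB, an AP-1 subunit, fell by 1.16 (SE 0.10, adjusted p = 3.04e-09), and its value was -0.90 with the GC and length correction. VEGFA, the vascular growth factor, had 2126, 1959 and 2054 counts in siMock and 4648, 5508 and 4857 in siFUBP1, and rose by 1.21 (SE 0.08, adjusted p = 2.17e-12). The targets BCL3, PIM1 and ICAM1 did not pass the test and had log2 fold changes between 0.011 and 0.033. Parts of the exonic bases of IRF1 (22%), JUNB (14.2%), CCND1 (10.3%) and ICAM1 (23.6%) are shared with genes on the opposite strand. By the adjusted p alone, 6 of the 19 were higher and 6 were lower, together 63.2% beside 60.2% of all genes tested.

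The genes whose pattern over the 6 samples was most like that of LEPR, by the Pearson correlation of log2 CPM among 11114 other tested genes averaging 100 counts or more, were JARID2 (r = 0.9998), TVP23B (0.9996), CNTRL (0.9993), INTS13 (0.9992) and SMIM15 (0.9991). The 6 points lie in 2 groups, so the measure mostly follows the difference between groups, and 420 genes had an r above 0.99. The log2 fold changes of these 5 genes, from 0.87 to 1.50, were all smaller than that of LEPR.

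The siRNA that was sequenced is not named in the sources used here, and the study lists 3 against FUBP1. Their guide strands are printed because a guide can also lower other mRNAs through its seed, bases 2 to 8, in capitals.

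RNAi#1: uAAACUGAaugcgaacacc
RNAi#2: uAAGAGGUuugucagcacc
RNAi#3: uUUCUUCUaugaguugccg

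A match of 7 bases to the seed of RNAi#1 lies in the 3′ UTR of 5 of the 10 genes (LEPR, IL6ST, OSMR, IL6R and JAK1) and of 19.9% of the 12421 tested genes with an annotated 3′ UTR. For RNAi#2 it lies in 1 of the 10 (IL6ST) and 12.2% of the tested genes, and for RNAi#3 in 2 of the 10 (IL6ST and LIFR) and 19.4%. In each gene only the transcript with the longest coding sequence was searched, which gave a 3′ UTR of 102 bases for LEPROT. The 3′ UTRs of other transcripts were not searched, so matches there are not known. The UTRs differ in length, so these shares are not compared. None of the guides had a match in the searched 3′ UTRs of LEPROT, JAK2, STAT3 and SOCS3. Whether any guide acted through its seed was not tested. The match in LEPR is shown with 10 bases on each side and the matched bases in capitals.

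LEPR, chr1:65637640-65637666, plus strand: aaacataatgTCAGTTTtaattcttct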

How the data were processed

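RNA of 3 siMock and 3 siFUBP1 samples of MG63 cells was sequenced from poly-A libraries with a kit that does not mark strand, and samples were grouped by their titles. The authors deposited raw read counts for 58735 genes, whose starts and ends all equal those of GENCODE 29 (GRCh38). The submitters' processing notes name HISAT2 2.0.5, StringTie 1.3.3b, featureCounts 1.5.0-p3 and DESeq2 1.16.1, and the use of strand is not given in the sources used here. The FPKM values are also the authors' own, the deposited counts scaled to gene length and library size. The authors' own comparison (group means, log2 fold changes and p-values from DESeq2) was not used. In R 4.3.3, the counts of 16116 genes that passed filterByExpr were fitted by edgeR 4.0.16 (TMM scaling, robust quasi-likelihood F test, Benjamini-Hochberg adjustment over these genes), a procedure first tested on simulated data. Genes were called at an adjusted p below 0.05 and a log2 fold change above 1 in either direction. SE values are from this fit. Genes were named by a rule: the 10 members, FUBP1, every called gene of the 6 pathway lists and the 5 genes most like LEPR. Other genes of the lists, and the marker genes, were named after their values were seen. Results of 2 genes of the lists are not reported here. The members and lists were chosen with earlier results of these data known. Total counts of 16309900 to 17484313 per sample set the precision, and limits from counts cover counting error only. No pair of samples held the same counts (chi-square per gene at least 5.37). Alternatives were other scalings and filters, DESeq2 1.42.0, limma 3.58.1 on log2(FPKM + 1) and log2(FPKM + 0.1), no fold threshold, the replicate number as a block, a correction for GC content and length, and leaving out each sample.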

Additional observations from a re-analysis of the deposited data

How the results depend on the processing

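LEPR was the only one of the 10 genes past the threshold in all 15 alternatives that kept the fold threshold. This is a description, since the set was chosen by these values. Without the fold threshold 5 of the 10 passed, as did 53 of the other pathway genes (21 higher, 32 lower) and 9695 of all genes tested (4844 higher, 4851 lower). On log2(FPKM + 1), where the added constant shrinks low values, 10 pathway genes were called (3 higher, 7 lower, all 10 among the 20 of the main comparison) and 1050 of all genes (462 higher, 588 lower), and the difference of LEPR was 1.85, or 3.32 with a constant of 0.1. Leaving out each sample gave 20 to 25 pathway genes (5 to 10 higher, 14 to 15 lower), with 10 higher without siFUBP1 replicate 3, where the cause was not tested. All genes called then ranged from 2775 to 3059 (1280 to 1451 higher, 1475 to 1608 lower). In FPKM the share of LEPR in the sum of LEPR and LEPROT was 1.86% in siMock and 15.1% in siFUBP1, since LEPR is the longer gene, and leaving out samples moved the share in counts to between 3.94% and 3.98% and between 27.7% and 28.3%. The GC and length correction called 18 pathway genes and DESeq2 24. With the replicate number as a replicate block, 20 pathway genes (the same 20) and 2793 of all genes were called, and no call on the 10 genes changed. Samples with the same number did not all deviate together (correlations of 0.032, 0.054 and 0.27 for numbers 1, 2 and 3), and not every sample correlated best with its own number, so the numbers were not taken to pair the samples. No fold change of a called gene changed sign. With 3 samples a group and few reads, the values of IL31RA and IL10RB are the least precise of the called genes.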

Other observations

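Some genes of the pathway lists had too few reads for the test and were not described above. For IL21R, the receptor for interleukin 21, siMock held between 0 and 4 counts per sample, and siFUBP1 between 9 and 26. This value is uncertain, because IL21R shares 23.3% of its exonic bases with IL21R-AS1 on the opposite strand. For IL2RG, the common gamma chain with which IL21R pairs, the range was 5 to 11 counts in siMock but 0 to 1 in siFUBP1, and the value is uncertain because IL2RG shares 50.8% of its exonic bases with another gene on the same strand. A2M, a protease inhibitor known as a STAT3 target in liver, lay between 9 and 10 counts in siMock while siFUBP1 held 0 to 3. For CSF3R, the receptor for granulocyte colony-stimulating factor, siMock held between 8 and 26 counts and siFUBP1 between 2 and 7. The counts of the groups did not overlap for any of these 4 genes. They were chosen after their values were seen, so nothing is read from this. Among all genes tested, the groups did not overlap in CPM for 63.9%.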
